A study of Drosophila melanogaster with 6 samples.

Results

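The 10 *Npc1* and *Npc2* genes of *Drosophila melanogaster*, *Npc1a*, *Npc1b* and *Npc2a* to *Npc2h*, were taken by their symbols from a table of RNA-seq counts of 17558 genes. The rule uses no measured value, but the set was picked for description with earlier results of these data known. The table covers enteroendocrine cells (EEs), the hormone-secreting cells of the adult midgut. There were 3 samples of *pros*-depleted EEs (genotype ProsV1-Gal4ts>UAS-GFP; pros-RNAi) and 3 samples of control EEs (ProsV1-Gal4ts>UAS-GFP), and the comparison asks how EE gene expression depends on Prospero (Pros), the homeodomain transcription factor that marks these cells. All flies were adult females 5 to 7 days old, kept for 7 days at 29 °C, which releases the temperature-sensitive Gal4 system so that GFP, and in the depleted flies also the hairpin RNA against *pros*, are made where the *prosV1* driver is active. The labels write the driver of *pros*-depleted replicates 2 and 3 as ProsV1-Gal5ts and ProsV1-Gal6ts, and the line of the hairpin sequenced is not given in the sources used here. Each sample was sorted from pooled guts as about 20000 GFP-positive cells that excluded a dead-cell stain, and its RNA was amplified before sequencing. The sort selected cells by the GFP of the driver, so any GFP-positive cell entered, whatever its identity at the time of the sort.

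Insects cannot make sterols and depend on those in the diet. In mammals, NPC2, a small soluble protein of the late endosome and lysosome, binds cholesterol and hands it to NPC1, a large membrane protein that moves it towards the rest of the cell, and loss of either causes Niemann-Pick type C disease. The fly has 2 *Npc1* genes and 8 *Npc2* genes. *Npc1a* acts in the trafficking of sterol inside cells and is needed to make the steroid hormone ecdysone, while *Npc1b* acts in the midgut, where it is needed to absorb dietary sterol. *Npc2a* and *Npc2b* act redundantly in sterol balance, and *Npc2a*, *Npc2e* and *Npc2h* proteins have also been found to bind bacterial cell wall products.

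The samples held 27183747 to 30148395 counts on genes in *pros*-depleted EEs and 29602875 to 40766059 in control EEs. Levels are given in CPM, the counts of a gene relative to the library size after scaling (edgeR, TMM). A limit of detection of 3 counts came to 0.0755 to 0.110 CPM and takes in counting error alone, because reads of amplified RNA can be copies of one molecule. The targeted gene, *pros* (chromosome 3R, 11328480 to 11407627), averaged 154 ± 14.3 CPM in *pros*-depleted EEs and 628 ± 182 CPM in control EEs (SD, n = 3 each), with a log2 fold change of -2.03 (SE 0.237, adjusted p = 0.000763, edgeR). *mt:lrRNA* held 7.37% to 15.1% of all counts in *pros*-depleted samples and 5.81% to 9.09% in control samples. Over all genes, which do not count as replicates, samples of a group correlated at a Spearman rho of 0.974 to 0.979 and samples of different groups at 0.896 to 0.930. No 2 samples of a group held the same counts within counting noise, and the study's methods call them independent replicates.

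*Npc2b* fell and was by far the most abundant member in control EEs. *Npc2d*, a minor member, fell as well, and *Npc1b*, the gene of midgut sterol absorption, rose. *Npc1a*, *Npc2a*, *Npc2e* and *Npc2f* did not pass the test, and *Npc2c*, *Npc2g* and *Npc2h* had too few counts to be tested. Calls required a Benjamini-Hochberg adjusted p under 0.01 (edgeR, quasi-likelihood test) together with a log2 fold change beyond 0.5 in either direction. A gene entered the test if 3 or more samples had 10 or more of its counts. Of the 10 members, 7 were tested, 1 was called higher and 2 lower. Among all 10374 genes tested, 4.73% were called higher and 7.96% lower. DESeq2 called the same numbers of members, against 8.23% higher and 11.1% lower of all genes it tested. The median log2 fold change was 0.16 over the 7 members tested and 0.02 over all genes tested. The groups did not overlap in CPM for 4 of the 7 members, against 43.0% of all genes tested. Because each sample is a bulk of sorted cells, fewer cells of a type and less RNA per cell cannot be told apart.

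**Figure D1:**
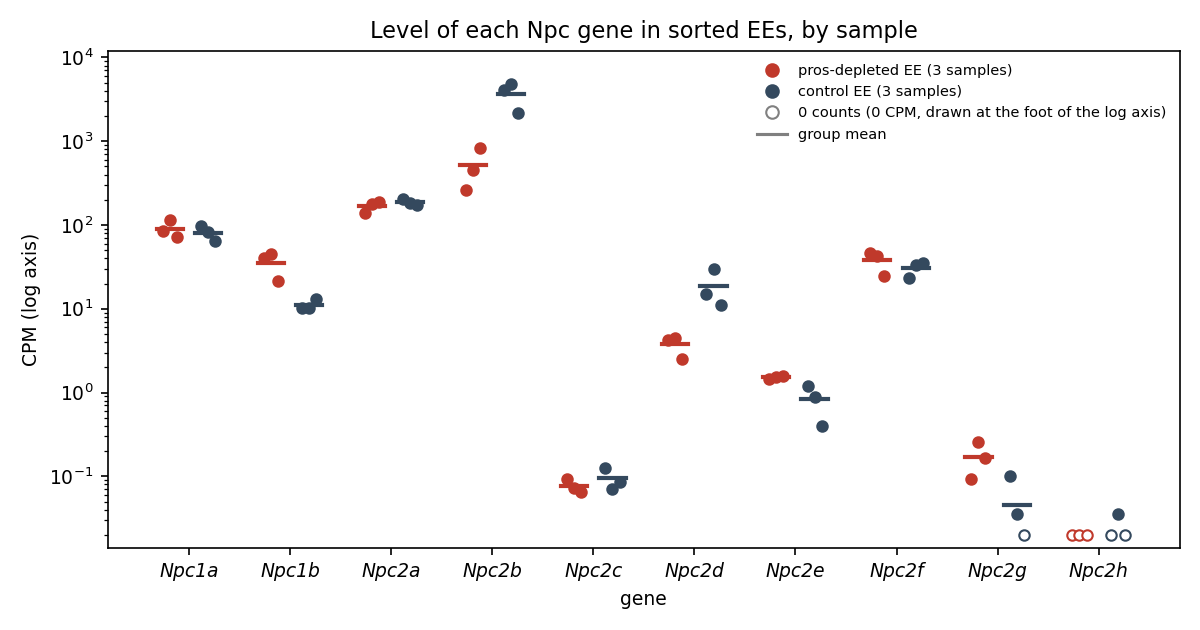
CPM of each of the 10 *Npc* genes on a log axis, with 1 point per sample (3 *pros*-depleted EE samples at the left of each gene, 3 control EE samples at the right) and the group mean as a bar; open points are samples with 0 counts. *Npc2b* lies at 265 to 840 CPM in *pros*-depleted EEs, below 2184 to 4777 CPM in control EEs, whereas the points of *Npc1a*, *Npc2a* and *Npc2f* overlap between groups.

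Among the membrane proteins, *Npc1b* (FBgn0261675, chromosome X, 20934869 to 20939503, plus strand, BDGP6) rose in *pros*-depleted EEs. It had 1302, 1219 and 644 counts in the *pros*-depleted samples, against 401, 284 and 448 counts in the control samples. In CPM these were 40.8, 44.7 and 21.1 in *pros*-depleted EEs and 10.1, 10.1 and 12.9 in control EEs. Every *pros*-depleted sample lay above every control sample, as for 20.4% of all genes tested, and *pros*-depleted replicate 3 was nearest to the control samples. The means were 35.5 ± 12.6 CPM in *pros*-depleted EEs and 11.0 ± 1.60 CPM in control EEs (SD, n = 3 each), a log2 fold change of 1.69 (SE 0.289), or 3.22-fold higher, with an adjusted p of 0.00447 (edgeR, Benjamini-Hochberg). The call was close to the threshold. Without *pros*-depleted replicate 3 the adjusted p was 0.00120 (log2 fold change 1.96), and without *pros*-depleted replicate 1 or 2 or control replicate 1, 2 or 3 it was 0.0174, 0.0123, 0.0196, 0.0237 and 0.0117 in that order, with log2 fold changes of 1.50 to 1.80, which are not called.

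*Npc1a* (FBgn0024320, chromosome 2L, 10213812 to 10221216, minus strand), the *Npc1* gene of general sterol trafficking, did not pass the test. It stood at 84.0, 116 and 71.3 CPM in *pros*-depleted EEs, against 97.1, 81.5 and 63.5 CPM in control EEs, and the groups overlapped. Its log2 fold change was 0.16 (SE 0.241, adjusted p = 0.655, edgeR), and without *pros*-depleted replicate 2 it was -0.046. The ratio of *Npc1b* to *Npc1a* counts in a sample does not depend on the scaling of libraries. It was 0.485, 0.385 and 0.297 in the *pros*-depleted samples and 0.104, 0.124 and 0.203 in the control samples, so the groups did not overlap (a ratio chosen after the values were seen, with no test). In every sample *Npc1b* had fewer counts than *Npc1a*. Per kb of exon, where the genes can be compared, *Npc1b* averaged 8.95 ± 3.18 CPM per kb in *pros*-depleted EEs and 2.78 ± 0.403 in control EEs, and *Npc1a* averaged 17.4 ± 4.42 CPM per kb in *pros*-depleted EEs and 15.5 ± 3.24 in control EEs (SD, n = 3 each).

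**Figure D2:**
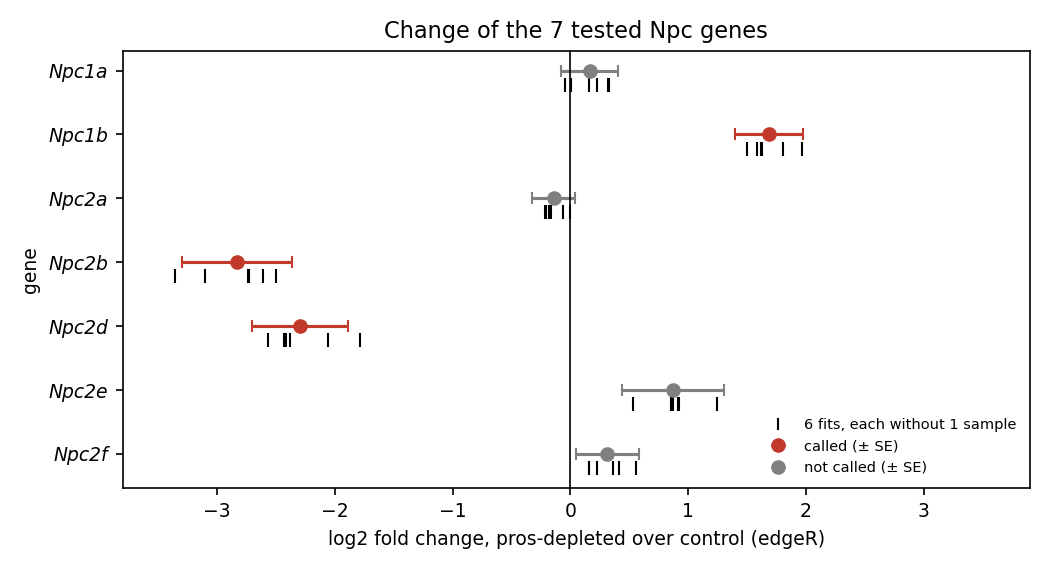
Log2 fold change of the 7 tested *Npc* genes, *pros*-depleted over control EEs, with bars of 1 SE; red points were called and grey points were not, and the black ticks are the 6 fits that each leave out 1 sample. The ticks of *Npc1b* (1.50 to 1.96), *Npc2b* (-3.36 to -2.50) and *Npc2d* (-2.57 to -1.79) keep to the side of 0 of the fit on all samples, and those of *Npc1a* lie on both sides.

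Among the soluble *Npc2* genes, *Npc2b* (FBgn0038198, chromosome 3R, 14089517 to 14092425, plus strand) had the largest change of the tested members. Its counts were 8450, 12217 and 25582 in the *pros*-depleted samples, against 161649, 133784 and 75877 in the control samples. In CPM these were 265, 448 and 840 in *pros*-depleted EEs and 4070, 4777 and 2184 in control EEs. All 3 *pros*-depleted samples lay below all 3 control samples, as for 22.5% of all genes tested, and the spread was wide in both groups, with replicate 3 of each nearest to the other group. The means were 517 ± 294 CPM in *pros*-depleted EEs and 3677 ± 1341 CPM in control EEs (SD, n = 3 each), a log2 fold change of -2.83 (SE 0.466), or 7.11-fold lower, with an adjusted p of 0.00367 (edgeR, Benjamini-Hochberg). Without *pros*-depleted replicate 2, control replicate 1 or control replicate 2 the call was lost at adjusted p values of 0.0169, 0.0109 and 0.0136, while the log2 fold change stayed between -3.36 and -2.50 whichever sample was left out.

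*Npc2a* (FBgn0031381, chromosome 2L, 1988290 to 1988940, plus strand), which shares its role in sterol balance with *Npc2b*, stood at 138, 179 and 188 CPM in *pros*-depleted EEs and 202, 183 and 172 CPM in control EEs. The groups overlapped, with a log2 fold change of -0.14 (SE 0.182, adjusted p = 0.610, edgeR). There were 1.92, 2.50 and 4.47 *Npc2b* counts for each *Npc2a* count in the *pros*-depleted samples, against 20.1, 26.1 and 12.7 in the control samples (chosen after the values were seen, with no test). *Npc2b* thus had more counts than *Npc2a* in every sample of both groups, by a narrower margin in each *pros*-depleted sample.

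*Npc2d* (FBgn0037782, chromosome 3R, 10055356 to 10056083, minus strand), a member without a described role that could be stated here, was low in all samples. It had 137, 123 and 77 counts in the *pros*-depleted samples, against 588, 833 and 382 in the control samples, or 4.29, 4.51 and 2.53 CPM in *pros*-depleted EEs and 14.8, 29.7 and 11.0 CPM in control EEs. The groups did not overlap, and control replicate 2 stood well above the other 2 control samples. The means were 3.78 ± 1.09 CPM in *pros*-depleted EEs and 18.5 ± 9.91 CPM in control EEs (SD, n = 3 each), a log2 fold change of -2.29 (SE 0.407), or 4.90-fold lower, with an adjusted p of 0.00524 (edgeR, Benjamini-Hochberg). Without *pros*-depleted replicate 1, 2 or 3 the adjusted p was 0.0194, 0.0146 and 0.0215, and without control replicate 2 it was 0.0103 at a log2 fold change of -1.79, all above the 0.01 that a call required. Without control replicate 1 or 3 it was 0.00976 and 0.00375.

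*Npc2f* (FBgn0039154, chromosome 3R, 24137895 to 24140936, plus strand) did not pass the test, at 46.2, 43.1 and 24.9 CPM in *pros*-depleted EEs and 23.5, 33.4 and 35.0 CPM in control EEs. The groups overlapped, with a log2 fold change of 0.31 (SE 0.268, adjusted p = 0.425, edgeR). *Npc2e* (FBgn0051410, chromosome 3R, 10053332 to 10054348, plus strand), one of the members whose protein binds bacterial products, had 46, 42 and 48 counts in *pros*-depleted EEs and 47, 25 and 14 counts in control EEs. In CPM these were 1.44, 1.54 and 1.58 in *pros*-depleted EEs and 1.18, 0.893 and 0.403 in control EEs. The groups did not overlap in CPM (p = 0.1 in a two-sided exact permutation test, which cannot go lower with 3 samples in each group), but the log2 fold change of 0.87 (SE 0.436) did not pass edgeR's test, at an adjusted p of 0.180.

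The counts of *Npc2e* are uncertain for another reason. Of its 661 exonic bp, 611 bp are shared with the non-coding gene *CR44192* on the opposite strand, which leaves 50 bp. In this table, 135 of the 142 genes whose exons are wholly shared with a gene on the opposite strand had 0 counts in all 6 samples (95.1%), against 1007 of 12132 genes with no shared exonic base (8.3%). How reads on stretches shared between strands were counted is not given, and whether low expression of such genes explains their 0 counts was not tested. The level of *Npc2e* per kb therefore cannot be set beside that of the other members with confidence. *Npc2b*, *Npc2d* and *Npc1b* share no exonic base with another gene.

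The remaining 3 members were at or near the limit of 3 counts. *Npc2c* (FBgn0037783, chromosome 3R, 10060252 to 10061136) had 3, 2 and 2 counts in *pros*-depleted EEs and 5, 2 and 3 counts in control EEs, and 414 of its 708 exonic bp are shared with *CR45205* on the opposite strand. *Npc2g* (FBgn0039800, chromosome 3R, 30744605 to 30745263) had 3, 7 and 5 counts in *pros*-depleted EEs and 4, 1 and 0 counts in control EEs, and the groups overlapped in counts. *Npc2h* (FBgn0039801, chromosome 3R, 30745479 to 30746290), whose protein binds bacterial products, had 0 counts in the 3 *pros*-depleted samples and 0, 1 and 0 counts in the control samples. A difference in these 3 genes was not detectable at this depth.

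Compared per kb of exon, *Npc2b* was the highest member in both groups, at 561 ± 319 CPM per kb in *pros*-depleted EEs and 3988 ± 1454 in control EEs (SD, n = 3 each). *Npc2a* followed at 259 ± 41.0 CPM per kb in *pros*-depleted EEs and 285 ± 23.9 in control EEs, and its samples overlapped those of *Npc2b* in *pros*-depleted EEs but not in control EEs, although *Npc2b* was the higher gene within every sample. *Npc2f* came next, at 53.5 ± 16.1 CPM per kb in *pros*-depleted EEs and 43.0 ± 8.72 in control EEs. Below it, *Npc1a*, *Npc1b* and *Npc2d* followed in this order in *pros*-depleted EEs, with *Npc2d* at 5.71 ± 1.64 CPM per kb and overlapping *Npc1b*. In control EEs *Npc2d*, at 28.0 ± 15.0 CPM per kb, stood between *Npc2f* and *Npc1a* and overlapped both across samples, and *Npc1b* was lower than all 3. Within every control sample *Npc2d* was below *Npc2f* and above *Npc1a*, and within every *pros*-depleted sample it was below *Npc1b*.

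The summed level of the 10 genes followed *Npc2b*. It was 580, 837 and 1149 CPM in *pros*-depleted EEs, against 4419, 5115 and 2478 CPM in control EEs. Without *Npc2b* the other 9 genes summed to 315, 389 and 310 CPM in *pros*-depleted EEs and 349, 339 and 295 CPM in control EEs, with overlapping groups. *Npc2b* took 58.8 ± 12.4% of the summed *Npc* counts per kb in *pros*-depleted EEs and 90.7 ± 3.03% in control EEs (SD, n = 3 each). The share of *Npc2a* was 30.0 ± 6.42% in *pros*-depleted EEs and 7.08 ± 2.40% in control EEs. Shares of one sum move together, and the CPM of *Npc2a* overlapped between groups.

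**Figure D3:**
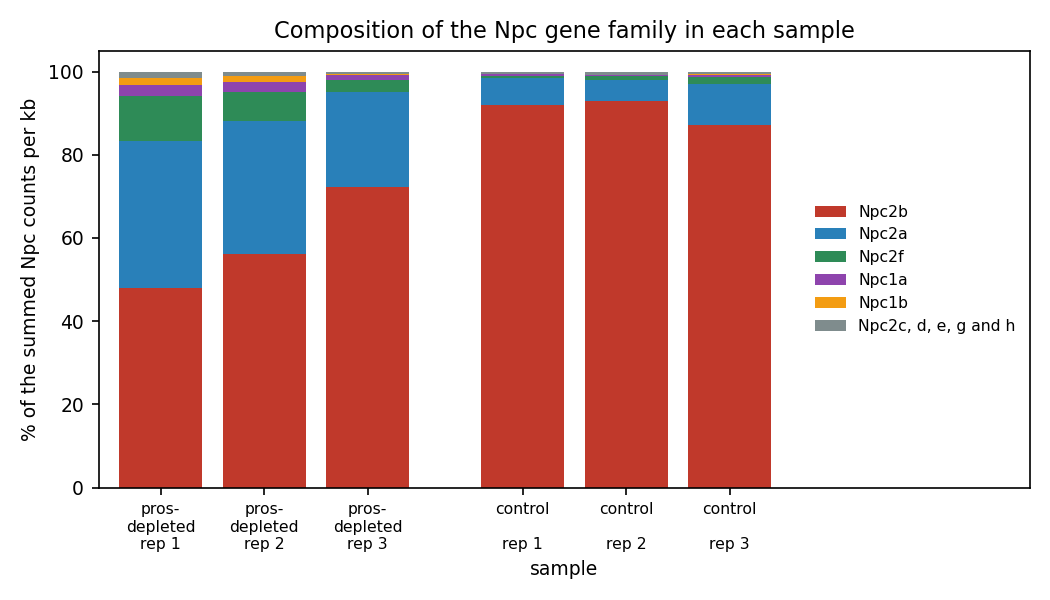
Share of each *Npc* gene in the summed *Npc* counts per kb of exon (percent, bars from 0), with 3 *pros*-depleted samples at the left and 3 control samples at the right. *Npc2b* takes 58.8 ± 12.4% in *pros*-depleted EEs and 90.7 ± 3.03% in control EEs (SD, n = 3 each), and *Npc2a* takes most of the rest.

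Levels of cell type markers also differed between the groups. Of 12 EE markers tested, 10 were called lower, against 7.96% of all genes tested. The 10 include *pros* itself, which the hairpin targets, so its lower level was set by the design. All 12 had lower CPM in every *pros*-depleted sample, against 22.5% of all genes tested. Their summed level was 9004 to 13219 CPM in *pros*-depleted EEs and 99345 to 108285 CPM in control EEs. *Tk*, *AstC* and *Dh31*, which encode gut hormones, and *amon*, the prohormone convertase, were among those called lower. Of 16 enterocyte markers, 6 were called higher, against 4.73% of all genes tested. There were 12 with higher CPM in every *pros*-depleted sample, against 20.4% of all genes tested. Among the 12, *gammaTry* and *deltaTry* had nearly the same counts in every sample, such as 48759 and 48633 in *pros*-depleted replicate 1. Whether the reads of these genes are separate was not tested. In the same list, edgeR and DESeq2 called 0 lower and 1 was lower at an unadjusted p under 0.05, *Jon25Bi*, a serine protease gene with a log2 fold change of -2.40. The 16 markers summed to 18622, 10768 and 8777 CPM in *pros*-depleted EEs and 2174, 1275 and 4124 CPM in control EEs. Of 12 progenitor markers, 7 were called higher, against 4.73% of all genes tested, and 5 were not called. Among the 5, *esg* overlapped between groups (log2 fold change 0.55, adjusted p = 0.306, edgeR) and *Su(H)* had a log2 fold change of -0.05. The 12 markers summed to 1203, 1252 and 1031 CPM in *pros*-depleted EEs and 486, 401 and 398 CPM in control EEs. *Npc1b*, *Npc2b* and *Npc2d* differed between the same groups as these lists, and the part of other cell types in their changes was not tested.

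For *Npc1b*, *pros*-depleted replicate 3 was the lowest of its group for the gene, for the enterocyte sum and for the progenitor sum. The highest of that group was replicate 2 for *Npc1b* (44.7 CPM) and the progenitor sum (1252 CPM), but replicate 1 for the enterocyte sum (18622 CPM). Control replicate 3 was the highest control sample for the gene and for the enterocyte sum but the lowest for the progenitor sum. For *Npc2d*, control replicate 2 was the highest sample, and it was also the highest for the sum of 6 hemocyte markers. It was the highest for the EE sum as well (108285 CPM, against 100024 and 99345 CPM in control replicates 1 and 3). Among *pros*-depleted samples, *Npc2d* and the hemocyte sum were lowest in replicate 3 (2.53 and 8.80 CPM). The EE sum was lowest in replicate 1 (9004 CPM, against 13219 and 12255 CPM in replicates 2 and 3). *Npc2b* was highest in control replicate 2 (4777 CPM), as the EE sum was. In *pros*-depleted EEs *Npc2b* was highest in replicate 3 (840 CPM), while the EE sum was highest in replicate 2. The hemocyte sum was 8.80 to 13.6 CPM in *pros*-depleted EEs and 15.3, 38.6 and 18.4 CPM in control EEs. Of the 5 hemocyte markers tested, edgeR called 0 in either direction, against 12.7% of all genes tested. Of the same 5, 3 were lower at an unadjusted p under 0.05 (edgeR), and DESeq2 called 2 lower, against 11.1% of all genes it tested. The sum of 6 fat body markers was 9.97 to 31.0 CPM in *pros*-depleted EEs and 2.18 to 17.0 CPM in control EEs, and the groups overlapped. The sum of 10 visceral muscle markers was 18.0 to 33.6 CPM in *pros*-depleted EEs and 26.6 to 37.2 CPM in control EEs, and that of 2 copper cell markers was 27.7 to 31.1 CPM in *pros*-depleted EEs and 23.1 to 29.5 CPM in control EEs. These sums also overlapped between the groups. Among the genes of these 3 lists, edgeR called 1 visceral muscle marker higher and 1 lower, of 10 tested. Over all genes tested, 4.73% were called higher and 7.96% lower. None of the 3 fat body and 2 copper cell markers tested was called by edgeR. Of the 2 copper cell markers, 1 was lower at an unadjusted p under 0.05 (edgeR) and was called lower with DESeq2, against 11.1% of all genes DESeq2 tested.

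**Figure D4:**
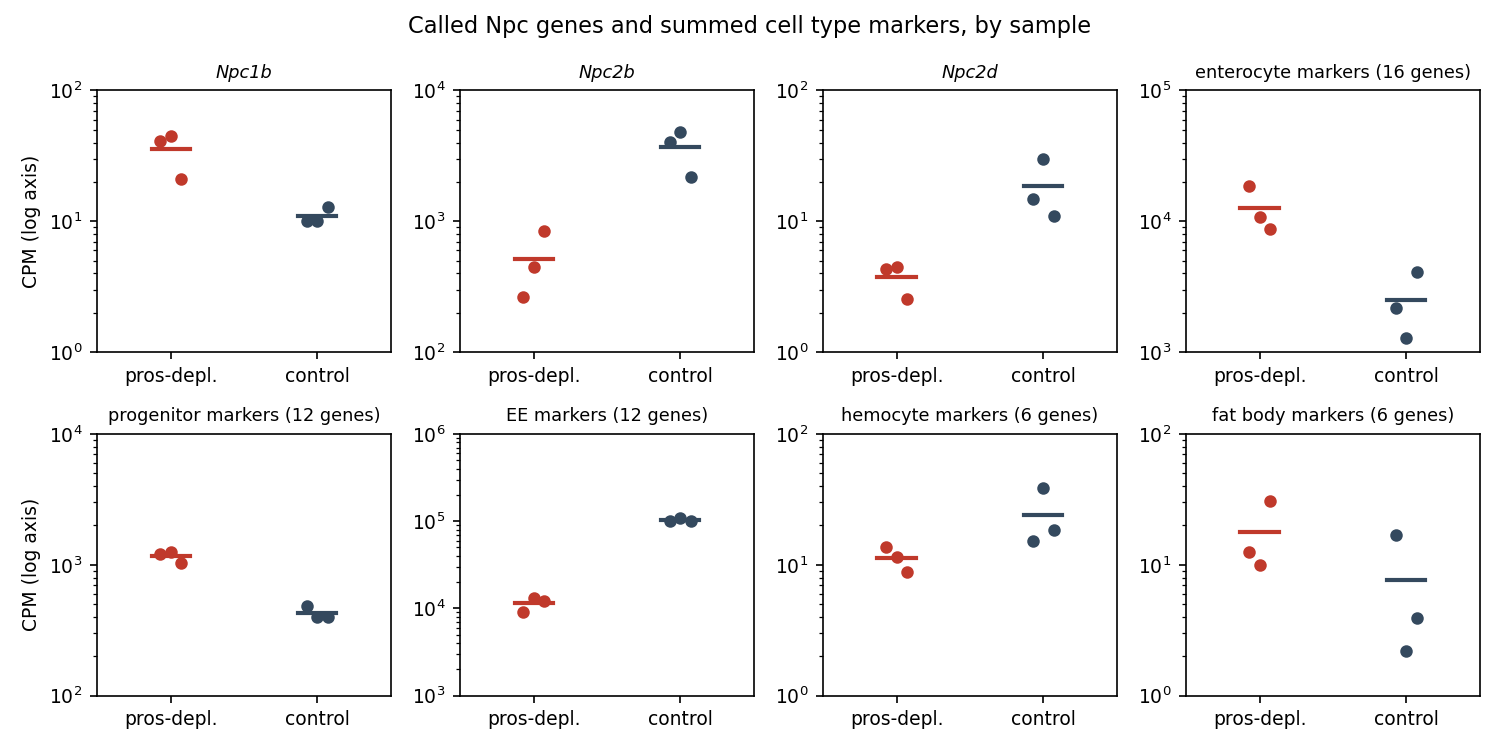
CPM of *Npc1b*, *Npc2b* and *Npc2d*, and summed CPM of 5 lists of cell type markers, on log axes with a scale of their own in each panel; points are samples (3 *pros*-depleted at the left, 3 control at the right) and bars are group means. The sums of EE markers (9004 to 13219 CPM in *pros*-depleted and 99345 to 108285 CPM in control EEs), enterocyte, progenitor and hemocyte markers do not overlap between groups, and that of fat body markers does.

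Of the 10 members, 7 lie on chromosome 3R, and some stand side by side there. *Npc2e*, *Npc2d* and *Npc2c* lie between 10053332 and 10061136, with 1007 bp between *Npc2e* and *Npc2d* and 4168 bp between *Npc2d* and *Npc2c*. Of these neighbours, *Npc2d* fell, *Npc2e* did not pass the test, and *Npc2c* had too few counts to be tested. There were 2.98, 2.93 and 1.60 *Npc2d* counts for each *Npc2e* count in *pros*-depleted EEs, against 12.5, 33.3 and 27.3 in control EEs (chosen after the values were seen, with no test). *Npc2g* and *Npc2h*, 215 bp apart, were both at or near 0 counts.

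*Npc2b* ends 78 bp from the end of *CCHa1* (chromosome 3R, 14092504 to 14096835, minus strand), a gene of a gut hormone that EEs make, and the genes are read towards each other. *CCHa1* had 711, 397 and 1443 CPM in *pros*-depleted EEs, against 3423, 2648 and 3513 CPM in control EEs, with no overlap between the groups. Its log2 fold change of -1.91 (SE 0.428) missed the threshold, at an adjusted p of 0.0138 (edgeR), and it was called without *pros*-depleted replicate 3 (0.00296), with DESeq2 (1.21e-05), with no filter on low counts (0.00358) and with a replicate block (0.00729). The number of *Npc2b* counts per *CCHa1* count was 0.372, 1.13 and 0.582 in *pros*-depleted EEs and 1.19, 1.80 and 0.622 in control EEs, so this ratio overlapped between groups. Reads running past the end of either gene were not tested. On the other side, *foxo*, a transcription factor of insulin signalling that ends 1538 bp before *Npc2b*, stood at 50.2 ± 8.72 CPM in *pros*-depleted EEs and 42.0 ± 6.21 CPM in control EEs (SD, n = 3 each) with a log2 fold change of 0.26, which did not pass the test.

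The members had 14 distinct neighbours that are not members themselves, of which 10 were tested. Of these 10, 1 was called higher, 1 lower and 8 were not called, against 4.73% higher and 7.96% lower of all genes tested. *Ser6*, a serine protease gene 23101 bp from *Npc1b*, rose to 34.2, 32.5 and 20.8 CPM in *pros*-depleted EEs, against 3.83, 2.29 and 5.53 CPM in control EEs (log2 fold change 2.90, SE 0.347, adjusted p = 0.000850, edgeR). *CR42874*, a non-coding gene 509 bp from *Npc2a*, fell to 1.94, 3.08 and 2.07 CPM in *pros*-depleted EEs, against 6.97, 4.96 and 6.01 CPM in control EEs. The log2 fold change was -1.34 (SE 0.277, adjusted p = 0.00973, edgeR), and it was called in 1 of the 6 fits that leave out a sample, that without *pros*-depleted replicate 2 (0.00912), the others giving adjusted p values up to 0.0378.

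The pattern over the 6 samples was compared with that of all other tested genes, by the Euclidean distance of log2(CPM + 0.1) centred on its mean. Nearest to *Npc1b* were *CG17167* (distance 0.325) and *CR45315* (0.342). *CG17167* stood at 6.92, 5.97 and 3.45 CPM in *pros*-depleted EEs and 1.46, 1.57 and 2.24 CPM in control EEs, so it too was lowest in replicate 3 among the *pros*-depleted samples and highest in replicate 3 among the control samples. Nearest to *Npc2b* were *CG34458* (0.740) and *Trpgamma* (0.751). *CG34458* stood at 29.9, 81.5 and 83.6 CPM in *pros*-depleted EEs and 394, 608 and 271 CPM in control EEs. *Trpgamma* stood at 0, 0 and 0.164 CPM in *pros*-depleted EEs and 0.662 to 1.00 CPM in control EEs. It was near the limit of detection, so the 0.1 CPM added weighs on its distance. Nearest to *Npc2d* were *TpnC41C* (0.415) and *CG5888* (0.518), and both were highest in control replicate 2, as *Npc2d* was. Both were near the limit of detection in *pros*-depleted EEs, at 0.131 to 0.345 CPM and 0.164 to 0.366 CPM. The distances of *Npc2b* were the longest of these. These genes were chosen for their likeness, and their values are a description.

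Other genes of sterol and lipoprotein handling were measured from a list of 26 genes, of which 25 were in the table and 23 were tested. Of these 23, 2 were called higher and 3 lower, against 4.73% higher and 7.96% lower of all genes tested. Of the genes called lower, 1 is counted but not described. The median log2 fold change of the 23 genes was -0.08, against 0.02 for all genes tested. *Apoltp*, the apolipoprotein of the lipid transfer particle, which loads lipid onto lipoproteins, fell furthest. It had 11, 15 and 27 counts in the *pros*-depleted samples, against 640, 398 and 667 counts in the control samples. The groups lay far apart, with a log2 fold change of -4.79 (SE 0.348), or 27.7-fold lower, and an adjusted p of 0.000119 (edgeR).

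*Rfabg*, the older symbol of *apolpp*, which encodes the main lipoprotein of fly blood, fell to 45.3, 60.6 and 30.8 CPM in *pros*-depleted EEs, against 161, 207 and 146 CPM in control EEs. Its log2 fold change was -1.91 (SE 0.276, adjusted p = 0.00202, edgeR), and it was not called without *pros*-depleted replicate 1 (0.0109).

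In the other direction, *LpR2*, a lipoprotein receptor, rose to 27.0, 44.4 and 22.7 CPM in *pros*-depleted EEs, against 9.94, 14.9 and 9.50 CPM in control EEs. This was a log2 fold change of 1.45 (SE 0.297, adjusted p = 0.00937, edgeR). *CG1513*, a gene related to oxysterol-binding proteins, averaged 89.9 ± 6.92 CPM in *pros*-depleted EEs and 52.5 ± 2.61 CPM in control EEs (SD, n = 3 each), with a log2 fold change of 0.78 (SE 0.156, adjusted p = 0.00870, edgeR). Both calls were lost whichever sample was left out, at adjusted p values of 0.0106 to 0.0359 for *LpR2* and 0.0166 to 0.0491 for *CG1513*.

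*Hr96*, a nuclear receptor known in flies to control *Npc1b* and the lipase gene *mag*, did not pass the test. It stood at 106, 179 and 105 CPM in *pros*-depleted EEs and 224, 301 and 185 CPM in control EEs, with no overlap and a log2 fold change of -0.87 (SE 0.278, adjusted p = 0.0525, edgeR). *mag*, which encodes a gut lipase that also splits cholesterol esters, stood at 137, 112 and 42.5 CPM in *pros*-depleted EEs and 12.3, 44.4 and 47.0 CPM in control EEs. The groups overlapped through *pros*-depleted replicate 3, and the log2 fold change of 1.49 (SE 0.558) did not pass the test (adjusted p = 0.0861, edgeR). *CG8112* had 0 counts in every sample, and all 2229 of its exonic bp are shared with a gene on the opposite strand.

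**Figure D5:**
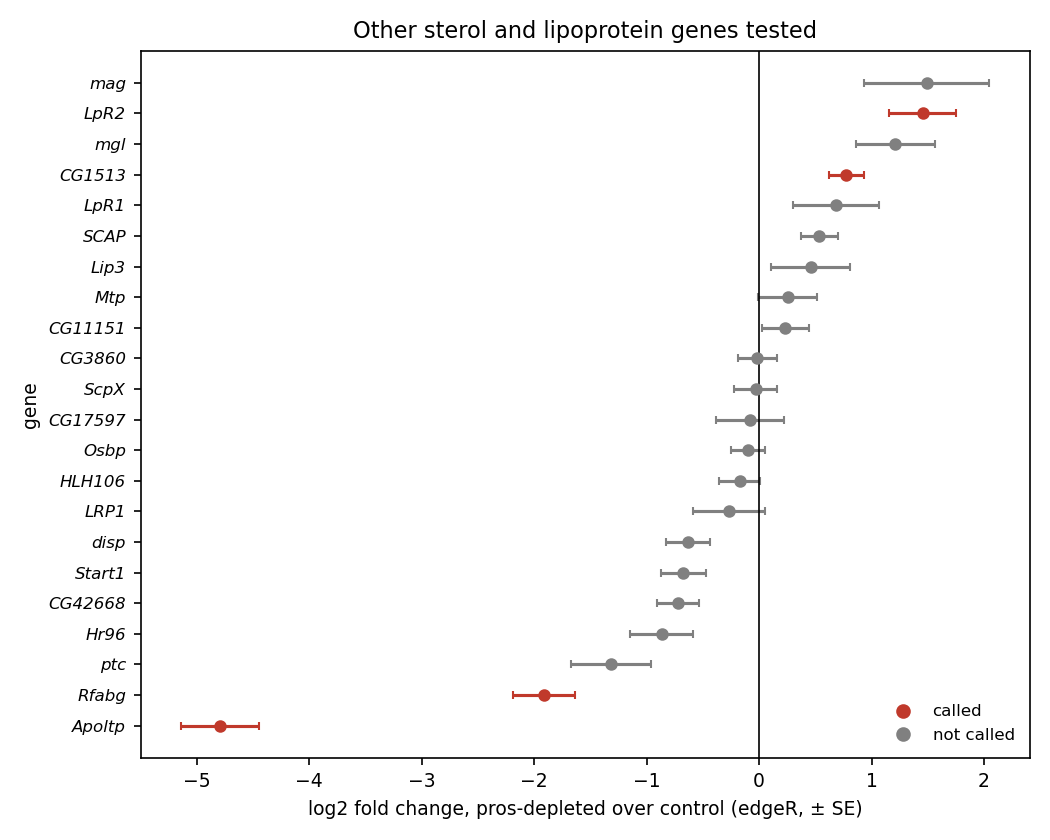
Log2 fold change, *pros*-depleted over control EEs, of 22 of the 23 tested genes of the sterol and lipoprotein list other than the *Npc* genes, with bars of 1 SE; red points were called and grey points were not. *Apoltp* lies apart at -4.79, and most of the other genes lie within 1 log2 unit of 0.

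In mammals, NPC1 and NPC2 work in the lysosome and late endosome, so genes of that compartment were also counted. From a list of 24 genes, 22 were in the table and 20 were tested, with a median log2 fold change of -0.15. Of these, 2 were called higher, and edgeR called 0 lower, where 4 were lower at an unadjusted p under 0.05 and DESeq2 called 3 lower. Over all genes tested, edgeR called 4.73% higher and 7.96% lower, and DESeq2 called 8.23% higher and 11.1% lower. The list also holds *Sply*, an enzyme of the endoplasmic reticulum, and *CG3999*, a mitochondrial glycine dehydrogenase, which are no lysosome genes. *Sply* was not called, and *CG3999* had too few counts to be tested.

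The lysosome genes called higher were *CG31148* and *cln3*. *CG31148*, now named *Gba1a*, encodes a glucocerebrosidase, the enzyme that splits glucosylceramide. It stood at 215, 205 and 114 CPM in *pros*-depleted EEs and 9.87, 14.6 and 15.5 CPM in control EEs, with a log2 fold change of 3.74 (SE 0.316, adjusted p = 0.000188, edgeR). *cln3*, whose human relative is mutated in a lysosomal storage disease of children, stood at 35.0, 16.4 and 14.7 CPM in *pros*-depleted EEs and 1.33, 0.643 and 2.79 CPM in control EEs. The log2 fold change was 3.78 (SE 0.557, adjusted p = 0.00222, edgeR), and without control replicate 1 the adjusted p was 0.0110, which is not called. *Lamp1*, the lysosome membrane protein, averaged 960 ± 283 CPM in *pros*-depleted EEs and 1374 ± 121 CPM in control EEs (SD, n = 3 each) and did not pass the test.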

How the data were processed

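RNA-seq counts of 6 samples (3 *pros*-depleted and 3 control EE samples, grouped by their labels) were analysed. The authors deposited whole-number counts per gene, made with featureCounts 1.6.3 from reads mapped to BDGP6, without normalization or pooling, and their own comparison used DESeq2. The aligner and the treatment of strand and multiply mapped reads are not given in the sources used here. Symbols and coordinates are those of the deposited table, and coordinates of the 10 genes were identical in the Ensembl 115 annotation.

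Counts were tested in R 4.3.3 with edgeR 4.0.16 (TMM, glmQLFit and glmQLFTest, Benjamini-Hochberg over all genes tested). A gene was kept if 3 or more samples had 10 or more counts. The thresholds (adjusted p 0.01, log2 fold change 0.5 in either direction) follow the study's methods. SE was derived from the log2 fold change and its F statistic. Tables were made in Python 3.11.15 with pandas 2.3.3 and scipy 1.17.1, and plots with matplotlib 3.10.9. The fit was tested on simulated data. Permutation tests are exact and two-sided.

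The members, gene lists and marker lists were chosen with earlier results of these data known. The rule for named genes took all members, *pros*, up to 4 called genes per list and direction, *Hr96* and *mag*, the genes next to a member and the 2 nearest in pattern to each called member. *Tk*, *AstC*, *Dh31*, *amon*, *Jon25Bi*, *gammaTry*, *deltaTry*, *esg*, *Su(H)*, *srp*, *CG8112*, *Lamp1*, *Sply* and *CG3999* fall outside it and were named after their values were seen. Alternatives were DESeq2 1.42.0, RLE factors, unscaled library sizes, no filter, a mean of at least 50 counts, glmTreat with its minimum fold change set at the threshold of 0.5 (log2), looser (adjusted p 0.05) and stricter (log2 fold change 1) thresholds, a replicate block, counts per kb, and each sample left out in turn. Protein and promoter sequences were not analysed here. In the sterol and lipoprotein list, 1 gene is counted but not reported here.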

Additional observations from a re-analysis of the deposited data

How the results depend on the processing

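*Npc2b* and *Npc2d* were lower and *Npc1b* was higher under every alternative run, and DESeq2 called the same 3 members in the same directions. Leaving out each sample in turn gave 0 to 1 members called higher and 0 to 2 lower, 188 to 317 of all genes higher and 413 to 596 lower, and, in the sterol and lipoprotein list, 0 genes higher in every such fit and 1 to 3 lower. The log2 fold change of *Npc1a* ranged from -0.046 to 0.33, and that of *CG4901*, the neighbour of *Npc1a*, from -0.14 to 0.035, and it was 0.069 with unscaled library sizes against -0.045 in the fit as reported. Over all genes, DESeq2 called 942 higher and 1266 lower, glmTreat 294 and 540, and an adjusted p under 0.05 gave 1184 and 1519. With glmTreat, *Npc1b* was not called (adjusted p = 0.0103), which left 0 members higher. In the sterol and lipoprotein list, 1 gene was called higher with no filter, 0 with glmTreat, 4 at an adjusted p under 0.05 and 1 at an absolute log2 fold change over 1, and 5 were called lower with DESeq2 and 7 at an adjusted p under 0.05. Unscaled library sizes moved the median of all genes by 0.12 (log2), and 46.8% of called genes were then higher, against 37.3% in the fit as reported. Per kb of exon, the share of *Npc1a* in the summed *Npc* counts was 2.12% in *pros*-depleted EEs and 0.373% in control EEs, while in counts it was 11.5% in *pros*-depleted EEs and 2.12% in control EEs. The 2 scales of this share differ by exonic length alone, which is 5198 bp for *Npc1a*, 922 bp for *Npc2b* and 651 bp for *Npc2a*. The looser and stricter thresholds were set on the same fit. The cause of the other differences was not tested.

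Samples of the 2 groups share only a replicate number. The deviations of same-numbered samples from their group means correlated at -0.164, 0.196 and 0.0995, and 3 of 6 samples correlated best with their own number. With a replicate block, 0 members were called higher and 1 lower: *Npc1b* had an adjusted p of 0.0165 (log2 fold change 1.63), *Npc2b* 0.0144 (-2.94) and *Npc2d* 0.00280 (-2.21), and 346 genes of all genes were called higher and 643 lower.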
